A study of Canis lupus familiaris with 36 samples.

Results

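The transcriptional effect of adding ibrutinib (Ibr), an irreversible inhibitor of Bruton's tyrosine kinase (BTK), to AS605240 (AS), an inhibitor of phosphoinositide 3-kinases (PI3K) that acts most strongly on the gamma isoform, was examined after 48 h in CLBL-1, an established canine diffuse large B-cell lymphoma line. The 3 libraries of cells given 1 µM Ibr and 5 µM AS (Ibr + AS) were set directly against the 3 libraries of cells given 5 µM AS alone, so both groups carried AS and differed in Ibr. These are 6 of the 36 libraries of the series, in which DMSO, Ibr, AS or both inhibitors were applied for 24, 48 or 72 h. Each group holds 1 culture from each of passages p121, p126 and p128, which are replicates 1, 2 and 3, and the comparison was paired by passage. All replicates are passages of 1 line. The p-values rest on the spread between replicate cultures over all 12 groups in 1 fit of 35 libraries, and not between animals. DMSO controls received the same DMSO content as the combination, and the DMSO content of the AS cultures is not given in the sources used here.

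In B cells, antigen receptor signalling passes from the receptor through the kinases LYN and SYK to BTK and to PI3K. The lipid that PI3K makes at the membrane recruits both BTK and AKT, so the targets of Ibr and AS lie close together in the same cascade. Downstream, BTK acts through phospholipase C gamma 2 on calcium, NFAT, NF-kB and the ERK kinases, which induce immediate early genes such as EGR1. AKT restrains the FOXO transcription factors and supports mTOR, which drives protein and lipid synthesis and cell division.

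Poly-A RNA had been sequenced as single-end reads, and between 11057415 and 12602220 reads were counted on genes in the 6 libraries. Levels are given as CPM, read counts of a gene relative to the TMM-scaled size of the library, always in the order of passages p121, p126 and p128, and are not corrected for gene length. The 50 most abundant genes took 21.4% to 22.9% of the reads with Ibr + AS and 17.6% to 18.3% with AS. By mean distance, each of the 6 libraries lay closer to the other libraries of its own group than to any other group. Replicates differed by more than read sampling gives, with chi-square values of 3.63 to 18.4 for each degree of freedom over 6 pairs of replicates, and the 2 farthest apart were passages p121 and p126 of Ibr + AS. Gene symbols could be paired with 1068 of the 18670 genes tested, mostly genes at the start of the identifier list, so statements on named genes cover this fraction only and BTK and PIK3CG, which encode the targets, were not analysed here.

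Adding Ibr to AS changed the expression of many genes at 48 h, and more of the larger changes were increases. With edgeR's quasi-likelihood test, 1002 of 18670 genes (5.37%) were differentially expressed genes (DEGs), called where the p-value after Benjamini-Hochberg adjustment was 0.05 or less and the log2 fold change was beyond 1 in either direction. Of these, 701 genes (3.75% of all genes tested) rose and 301 genes (1.61%) fell. Without the limit on fold change, 2491 genes (13.3%) were higher and 2696 genes (14.4%) were lower, and with RLE in place of TMM scaling these counts were 2717 and 2409. The median absolute log2 fold change of the DEGs was 1.45. Over all genes tested the median log2 fold change, with its sign, was 0.02. The direction was the same in the 3 passages for 991 of the 1002 DEGs, which a call from these same libraries makes likely. In 966 of the DEGs the 3 libraries of one group all lay above those of the other, as they did in 38.9% of all genes tested. A group held at most 3 reads in each of its libraries for 161 DEGs. In 9 of these, all of which rose, both groups did, and these 9 were left out of the medians with a floor. With the low group of the others set at the value that 3 reads would give, the median log2 fold change was 1.35 in place of 1.53 for genes that rose. For genes that fell it was -1.25 in place of -1.31. These are values for RNA of whole cultures, in which fewer cells of a kind and less RNA per cell cannot be told apart. When the limit on fold change was tested itself with glmTreat, 214 genes were called, 177 higher and 37 lower.

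**Figure D1:**
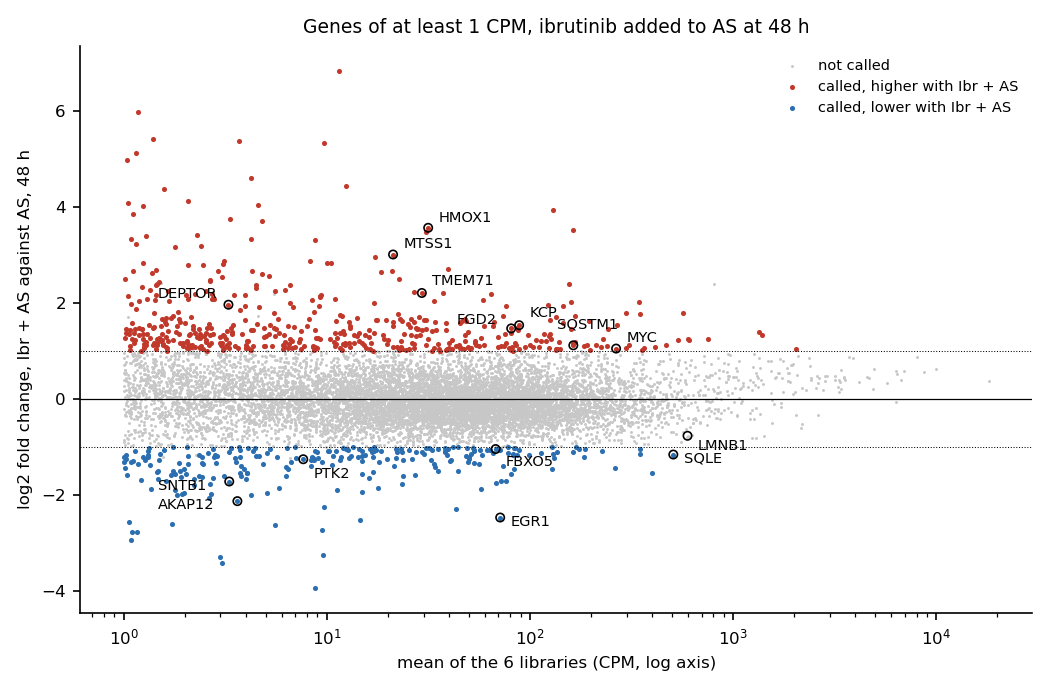
Each point is 1 of the 10770 genes whose mean reached 1 CPM; the horizontal axis is the mean level over the 6 libraries in CPM (log axis) and the vertical axis the log2 fold change of Ibr + AS against AS at 48 h. Red and blue points are the 480 DEGs that rose (4.46%) and the 241 that fell (2.24%) among these genes, dotted lines mark a log2 fold change of 1 in either direction, and the circled genes include HMOX1 at 3.56 and EGR1 at -2.48.

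Of the 1068 genes with a symbol 33 rose (3.09%) and 16 fell (1.5%). The largest increases included genes of heme breakdown, the cytoskeleton and the control of mTOR. HMOX1, the heme oxygenase that degrades heme and is a classical target of the transcription factor NRF2, stood at 74.1, 51.8 and 48.8 CPM with Ibr + AS and 4.49, 4.88 and 5.34 CPM with AS. Every Ibr + AS library lay far above the AS libraries, and the log2 fold change was 3.56 (SE 0.35, adjusted p = 2.7e-08). MTSS1, a protein that binds actin and bends membranes, stood at 36.8, 41 and 35.3 CPM with Ibr + AS and 4.15, 4.73 and 5.17 CPM with AS. Its groups did not overlap either, with a log2 fold change of 3.00 (SE 0.18, adjusted p = 2.8e-16). TMEM71, which encodes a transmembrane protein, was measured at 41.4, 55.3 and 48.1 CPM with Ibr + AS and 11.7, 9.14 and 10.6 CPM with AS, again without overlap, and its log2 fold change was 2.20 (SE 0.18, adjusted p = 1.6e-10). For DEPTOR, which binds mTOR and inhibits it, the libraries held 3.59, 5.13 and 6.98 CPM with Ibr + AS and 1.41, 1.1 and 1.48 CPM with AS. The level was lowest in passage p121 and highest in passage p128 within Ibr + AS, yet each of these libraries lay above all AS libraries, and the log2 fold change was 1.96 (SE 0.27, adjusted p = 1.7e-09).

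FBXO32, a muscle-type ubiquitin ligase adaptor and well-known FOXO target, was low in both groups, with 2.33, 2.03 and 2.86 CPM with Ibr + AS and 0.748, 0.866 and 0.821 CPM with AS. The groups did not overlap, and the log2 fold change was 1.56 (SE 0.34, adjusted p = 1.3e-04). KCP, a secreted modulator of BMP signalling, was measured at 141, 129 and 124 CPM with Ibr + AS and 53, 42.9 and 41 CPM with AS. Passage p121 was highest in both groups, all Ibr + AS libraries exceeded the AS libraries, and the log2 fold change was 1.53 (SE 0.15, adjusted p = 2.7e-09). FGD2, an exchange factor that activates the GTPase CDC42, reached 115.7, 126.4 and 113.9 CPM with Ibr + AS and 46.2, 41.4 and 41.6 CPM with AS. The groups did not overlap, with a log2 fold change of 1.46 (SE 0.10, adjusted p = 1.1e-23). The palmitoyltransferase gene ZDHHC14 rose with a log2 fold change of 1.47, the phospholipase gene PLA2G6 with 1.42, the Ras exchange factor gene RASGEF1C with 1.35 and the melanosome protein gene PMEL with 1.28. In each of these 4 genes the 2 groups did not overlap. PMEL rested on few reads, with 1.97, 2.42 and 2.52 CPM with Ibr + AS and 0.665, 0.945 and 1.23 CPM with AS and an adjusted p of 0.002.

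**Figure D2:**
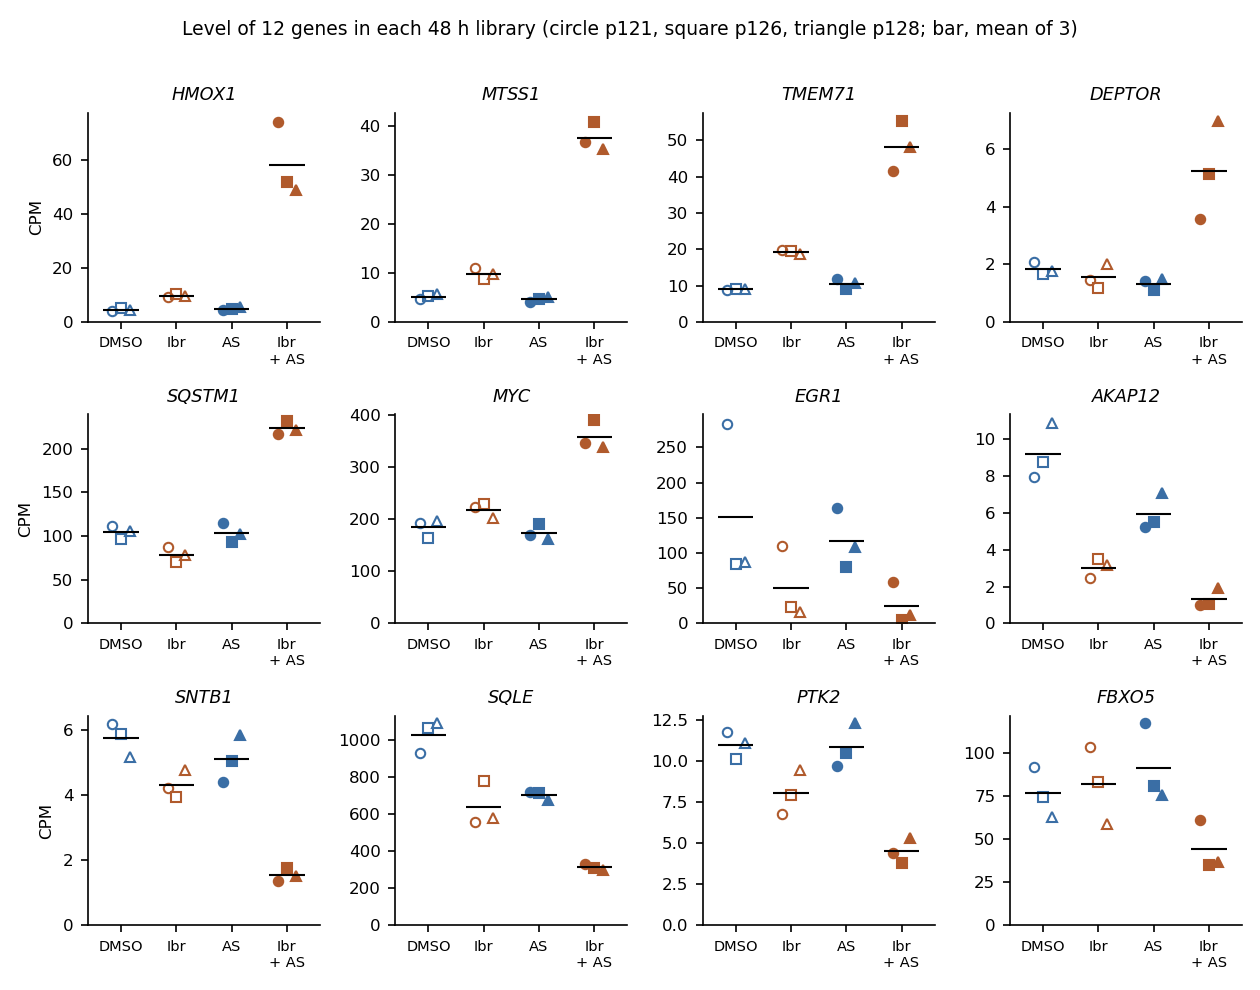
Level in CPM (linear axis from 0) of 12 genes in each of the 12 libraries of 48 h, with DMSO, Ibr, AS and Ibr + AS side by side; circles are passage p121, squares p126 and triangles p128, open symbols are cultures without AS, and bars are means of 3. For HMOX1, MTSS1, TMEM71, DEPTOR, SQSTM1 and MYC all Ibr + AS libraries lie above the other 9 libraries, while for AKAP12, SNTB1, SQLE and PTK2 they lie below them.

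Among the genes with a symbol and a mean of at least 1 CPM that fell, EGR1 had one of the largest changes. It encodes the immediate early transcription factor induced by antigen receptor and ERK signalling. EGR1 stood at 59.2, 4.65 and 11.6 CPM with Ibr + AS and 164, 79.6 and 109 CPM with AS. The groups did not overlap, but passage p121 was the highest library in both, and the fall in passage p121 was smaller than in the other passages. The log2 fold change was -2.48 (SE 0.56, adjusted p = 0.0015), and this call was lost without passage p126 (adjusted p = 0.079) and in a fit of the 6 libraries alone (adjusted p = 0.15). AKAP12, a scaffold for protein kinases A and C, was measured at 0.986, 1.07 and 1.94 CPM with Ibr + AS and 5.23, 5.51 and 7.06 CPM with AS. It was lower in every Ibr + AS library, with a log2 fold change of -2.14 (SE 0.25, adjusted p = 9.4e-12). SNTB1, a syntrophin that links membrane proteins to the cytoskeleton, stood at 1.34, 1.74 and 1.51 CPM with Ibr + AS and 4.4, 5.04 and 5.83 CPM with AS. Here too every Ibr + AS library was lower, and the log2 fold change was -1.73 (SE 0.24, adjusted p = 1.4e-09).

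PTK2, the focal adhesion kinase, was measured at 4.39, 3.78 and 5.3 CPM with Ibr + AS and 9.72, 10.5 and 12.3 CPM with AS. This was a reduction in each passage, with a log2 fold change of -1.26 (SE 0.18, adjusted p = 7.9e-09). SQLE, the squalene epoxidase of cholesterol synthesis, had 332, 309 and 299 CPM with Ibr + AS and 721, 711 and 674 CPM with AS. All Ibr + AS libraries were below the AS libraries, with a log2 fold change of -1.16 (SE 0.10, adjusted p = 7.5e-18). FBXO5, an inhibitor of the anaphase-promoting complex, had 61.1, 35.1 and 36.4 CPM with Ibr + AS and 118, 81.1 and 75.5 CPM with AS. Passage p121 was highest in both groups, the groups did not overlap, and the log2 fold change was -1.05 (SE 0.13, adjusted p = 1.5e-08), which was -0.99 without passage p126. ATP8B1, a phospholipid flippase gene, fell with a log2 fold change of -1.30, BEND4 with -1.52, RGS22, which belongs to the regulators of G protein signalling, with -1.33 and TCP11 with -1.59. P4HA2, a subunit of collagen prolyl hydroxylase, fell with -1.11 (adjusted p = 2.3e-04), which was -0.78 and below the fold limit without passage p128. The kinesin gene KIF27 had a log2 fold change of -1.0, so close to the limit that it was called in the main fit and missed the limit under 9 alternatives.

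Larger changes occurred among genes whose identifier could not be paired with a symbol. ENSCAFG00000019993 had 190, 305 and 260 reads with Ibr + AS against 2, 2 and 3 reads with AS, a ratio of scaled reads of 119-fold (95% exact binomial interval 57.6 to 298, counting error only). ENSCAFG00000019278 had 30, 27 and 20 reads against 1, 0 and 0 reads, and with 1 read in the AS group its ratio of 85.2-fold (95% exact binomial interval 14.8 to 3408, counting error only) is only loosely bounded. Both genes were higher in every Ibr + AS library than in any AS library. ENSCAFG00000013904 fell from 15.9, 19.8 and 13.5 CPM with AS to 1.26, 0.775 and 1.09 CPM with Ibr + AS, a log2 fold change of -3.94 (SE 0.32, adjusted p = 4.9e-10). ENSCAFG00000014490 fell from 5.48, 4.57 and 6.65 CPM to 0.359, 0.484 and 0.673 CPM, a log2 fold change of -3.42 (SE 0.51, adjusted p = 1.4e-05).

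The genes of known pathways were then described by lists, beginning with the receptor cascade itself. The lists were chosen with earlier results of these data known, so their counts describe these data and are no independent support. Of all genes of at least 1 CPM, 21.1% were higher and 24.5% lower at an adjusted p of at most 0.05, and these shares are repeated as the background of the lists. Of 28 genes listed for antigen receptor signalling 9 were tested, of which 2 were higher and 1 lower by the same limit, with a median log2 fold change of 0.05. TNFRSF13C, the receptor for the B-cell survival factor BAFF, rose from 105, 135 and 113 CPM with AS to 212, 293 and 251 CPM with Ibr + AS. The groups did not overlap, and the log2 fold change was 1.10 (SE 0.10, adjusted p = 6.4e-16). RAC2, a GTPase of blood cells downstream of the receptor, was higher with a log2 fold change of 0.74 (adjusted p = 6.1e-11), and EGR1 was the member that fell. The lipid phosphatase gene INPP5D (-0.05), PTK2B (0.04), MALT1 (-0.06) and NFATC1 (0.11) did not pass the test.

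Of 28 genes listed for PI3K, AKT, mTOR and FOXO 13 were tested, 4 were higher against a background of 21.1%, none was lower, and the median was 0.07. With the 6 libraries alone 2 were lower, and with the 12 libraries of 48 h or without passage p128 1 was. The members that rose were DEPTOR and FBXO32, described above, TFEB, a transcription factor for lysosomal genes that mTOR holds in the cytoplasm, with a log2 fold change of 0.37 (adjusted p = 4.1e-04), and PRR5, a component of mTOR complex 2, with 0.32 (adjusted p = 0.0055). PIK3R1, the regulatory subunit of class IA PI3K, was measured at 68.3, 60.9 and 62.8 CPM with Ibr + AS and 63.5, 60.4 and 63.3 CPM with AS. These libraries overlapped, with a log2 fold change of 0.04 (adjusted p = 0.88). SGK1, a kinase related to AKT and a FOXO target, had a log2 fold change of -0.26 (adjusted p = 0.52) and RPTOR, the scaffold of mTOR complex 1, one of -0.01 (adjusted p = 1).

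Of 13 genes listed around MYC and MYB 10 were tested, and their median log2 fold change was 0.20, with 1 gene higher and 1 lower. The count of higher genes depended on the fit, with 2 for RLE factors, 3 for DESeq2, 4 for the 12 libraries of 48 h and 5 for the 6 libraries alone. MYC, which drives growth and biosynthesis, stood at 345, 389 and 339 CPM with Ibr + AS and 169, 190.2 and 161 CPM with AS. All Ibr + AS libraries were higher than any AS library, with a log2 fold change of 1.04 (SE 0.10, adjusted p = 7.5e-16). MYB, a regulator of progenitor cell proliferation, stood at 23.8, 19.7 and 21.1 CPM with Ibr + AS and 35.1, 33.3 and 28.2 CPM with AS. It was lower in each Ibr + AS library, with a log2 fold change of -0.58 (SE 0.12, adjusted p = 2.7e-05), which is inside the fold limit.

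Of 20 listed genes of interferon and NF-kB signalling 17 were tested, 5 were higher and 2 lower, with a median log2 fold change of 0.21. The background was 21.1% higher and 24.5% lower, and 7 members were higher with DESeq2, RLE factors or filterByExpr. IRF5, a transcription factor of innate and B-cell responses, stood at 252, 267 and 264 CPM with Ibr + AS and 115.5, 124.6 and 120.6 CPM with AS. IRF1, an interferon-induced transcription factor, stood at 85.7, 119 and 102 CPM with Ibr + AS and 45.6, 52.5 and 44 CPM with AS. In both genes the groups did not overlap, with log2 fold changes of 1.12 (SE 0.09, adjusted p = 4.6e-20) and 1.10 (SE 0.10, adjusted p = 3.4e-17). TRIB1, a pseudokinase that directs protein degradation, had 57.8, 62.1 and 45.3 CPM with Ibr + AS and 38.9, 24.7 and 18.3 CPM with AS. Its groups did not overlap, but passage p121 was high in the AS group, and the log2 fold change was 1.04 (SE 0.23, adjusted p = 0.0014), with an adjusted p of 0.12 without passage p126 and a log2 fold change of 0.97 without passage p128. The cytokine gene LTA and the cytokine receptor subunit gene CSF2RB were higher with 0.41 (adjusted p = 8.3e-04) and 0.61 (adjusted p = 4.6e-04). TNFAIP3, which restrains NF-kB, and the receptor gene IFNGR1 were lower with -0.35 (adjusted p = 0.01) and -0.28 (adjusted p = 0.012), and neither passed the test without passage p126.

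Most antigen presentation genes tested were higher, with 5 of 8 tested members (11 were listed) higher, 1 lower and a median log2 fold change of 0.37, against 13.3% higher and a median of 0.02 among all genes tested and 21.1% higher among genes of at least 1 CPM. DLA-DOA, a class II subunit that tunes peptide loading in B cells, had 76.4, 99.2 and 92.7 CPM with Ibr + AS and 51.4, 41.7 and 46.3 CPM with AS. DLA88, the classical class I heavy chain, had 87.4, 112 and 98.9 CPM with Ibr + AS and 63.8, 59.4 and 60.9 CPM with AS, and TAP1, the peptide transporter, had 644, 792 and 734 CPM with Ibr + AS and 486, 489 and 494 CPM with AS. None of these 3 genes overlapped between the groups, and the log2 fold changes were 0.95 (adjusted p = 1.5e-11), 0.70 (adjusted p = 2.1e-08) and 0.56 (adjusted p = 1.2e-07). The class II chain gene DLA-DRA and the loading factor gene TAPBP were higher with 0.39 and 0.35, the former with an adjusted p of 0.063 without passage p126, while the chaperone gene CANX was lower with -0.50. DLA-DQA1 with 0.21 and DLA-DMA with 0.08 did not pass the test. DLA genes have close relatives, so reads may be divided among copies.

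Most cell cycle and DNA replication genes tested were lower, in a list chosen with earlier results of these data known. Of 30 listed genes 26 were tested, 20 were lower and 2 higher at an adjusted p of at most 0.05, against 14.4% lower among all genes tested and 24.5% among genes of at least 1 CPM. Their median log2 fold change was -0.46, and only FBXO5 passed the fold limit. LMNB1, a nuclear lamina protein abundant in cycling cells, stood at 482, 419.9 and 419 CPM with Ibr + AS and 755, 769.8 and 734 CPM with AS. ATAD2, a chromatin ATPase of replicating cells, stood at 205, 176 and 199.5 CPM with Ibr + AS and 356, 385 and 361 CPM with AS. Both genes were lower in every Ibr + AS library, with log2 fold changes of -0.77 (SE 0.09, adjusted p = 2.2e-12) and -0.92 (SE 0.10, adjusted p = 2.7e-13). CDK2 and CDK4, the kinases of the passage into S phase, had log2 fold changes of -0.72 (adjusted p = 8.2e-09) and -0.53 (adjusted p = 1.5e-06). MCM5 of the replicative helicase had -0.57 (adjusted p = 1.9e-07), and CDC25C, which opens mitosis, had -0.73 (adjusted p = 1.3e-07). CCND3, the cyclin D gene typical of germinal centre B cells, went the other way, with 565, 644 and 617 CPM with Ibr + AS and 398, 416 and 404 CPM with AS and a log2 fold change of 0.58 (adjusted p = 4.0e-08).

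Among ribosomal protein and translation factor genes, 7 of 16 were higher and 2 were lower, against a background of 21.1% and 24.5%, and the median was 0.17. RPL8, a protein of the large ribosomal subunit, had 6454, 8506 and 7726 CPM with Ibr + AS and 5199, 4988 and 5107 CPM with AS, with a log2 fold change of 0.57 (adjusted p = 3.9e-06). The elongation factor subunit gene EEF1D was higher, with 0.65 (adjusted p = 8.1e-08). The release factor gene ETF1 and EIF4G2, a relative of the initiation scaffold, were lower, with -0.81 (adjusted p = 3.3e-10) and -0.51 (adjusted p = 2.0e-06). PABPC1, the poly-A binding protein, had 6072, 6116 and 6422 CPM with Ibr + AS and 6441, 6706 and 6273 CPM with AS and did not pass the test, with -0.06 (adjusted p = 0.72). Without passage p126, 3 ribosomal and translation genes were higher in place of 7. Retrogenes of ribosomal proteins can take part of their reads.

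Ribosome biogenesis genes had a median of -0.21, with 6 of 12 tested members lower and 2 higher, against a background of 24.5% and 21.1%. The nucleolar genes UTP20, PA2G4 and PWP1 were lower, with -0.45 (adjusted p = 2.6e-04), -0.38 (adjusted p = 4.6e-04) and -0.63 (adjusted p = 3.5e-08), and BYSL, which matures the small subunit, was higher with 0.51 (adjusted p = 2.2e-06). Of 9 tested genes of amino acid synthesis, tRNA charging and the ATF4 programme 6 were lower against the same 24.5%, none was higher, and the median was -0.31. The tRNA ligase gene NARS1 and the tRNA exporter gene XPOT had the lowest values, -0.74 (adjusted p = 4.0e-11) and -0.65 (adjusted p = 1.4e-09). ATF4 itself stood at 939, 636 and 652 CPM with Ibr + AS and 941, 692 and 674 CPM with AS, which overlapped, with -0.06 (adjusted p = 0.81), and VARS1 had -0.23 (adjusted p = 0.057). Without passage p128, 3 biogenesis genes and 2 amino acid genes were lower in place of 6 each, without passage p126 4 of each were, and without passage p121 4 biogenesis genes were.

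Of 6 tested genes of the oxidative stress response 2 were higher, 2 were lower, and the median was -0.09, with 1 lower gene without passage p126 or p128. These are counts of few genes beside a background of 21.1% and 24.5%, as are those of the next list. Besides HMOX1, SQSTM1, the autophagy receptor p62, rose from 115, 93.6 and 102 CPM with AS to 217, 231 and 222 CPM with Ibr + AS. The groups were far apart, with a log2 fold change of 1.11 (SE 0.10, adjusted p = 8.0e-17). Other members of the response had lower or near-zero values, with TXNRD1 of the thioredoxin system at -0.28 (adjusted p = 0.0066), the mitochondrial superoxide dismutase gene SOD2 at -0.52 (adjusted p = 3.3e-06) and TXN2 at 0.06 (adjusted p = 0.77). Of 5 tested genes of cholesterol and fatty acid synthesis 3 were lower and 1 higher, with a median of -0.23. Without passage p126 or p128 2 were lower and none was higher, and with RLE factors, all 36 libraries or the 6 libraries alone 2 were lower. Beside SQLE, ACAT2, which joins acetyl units at the start of the sterol pathway, had 144, 143 and 134 CPM with Ibr + AS and 257, 235 and 225 CPM with AS, with a log2 fold change of -0.76 (adjusted p = 3.1e-11). SREBF2, the transcription factor of the sterol pathway, had -0.23 (adjusted p = 0.048), and the lipid droplet coat gene PLIN2 had 0.24 (adjusted p = 0.03).

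Of 8 tested apoptosis genes 1 was higher and 2 were lower, near or below the background of 21.1% and 24.5%, and the median was -0.03, or 0.01 with RLE factors. Without passage p126 1 was lower. GSDMD, the pore-forming effector of pyroptosis, had 174, 196 and 169 CPM with Ibr + AS and 89, 82.3 and 91.8 CPM with AS, with a log2 fold change of 1.04 (SE 0.10, adjusted p = 4.8e-15), which was 0.92 without passage p126. BCL2, the survival protein, had 15.1, 14.9 and 13.3 CPM with Ibr + AS and 25.9, 23.6 and 24.5 CPM with AS. It was lower in all 3 passages, with a log2 fold change of -0.77 (SE 0.13, adjusted p = 1.9e-07). DAPK1, a kinase of cell death, was lower with -0.76 (adjusted p = 0.0037), and the p53 antagonist gene MDM2 had -0.03 (adjusted p = 0.89).

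Of 18 genes of the actin cytoskeleton and adhesion, all tested, 6 were higher and 2 were lower, beside a background of 21.1% and 24.5%, and the median was -0.04, or 0.02 without passage p128. In addition to MTSS1, CYTH4 and DEF6, exchange factors of small GTPases in blood cells, were higher, with 0.96 (adjusted p = 7.2e-15) and 0.85 (adjusted p = 7.7e-14). The parvin gene PARVG and the myosin gene MYH9 were higher with 0.58 (adjusted p = 2.3e-07) and 0.53 (adjusted p = 2.1e-06). AKAP12 and PTK2 were the 2 members that fell. ACTN4 (-0.02), EZR (0.15) and ITGA4 (-0.10) did not pass the test.

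**Figure D3:**
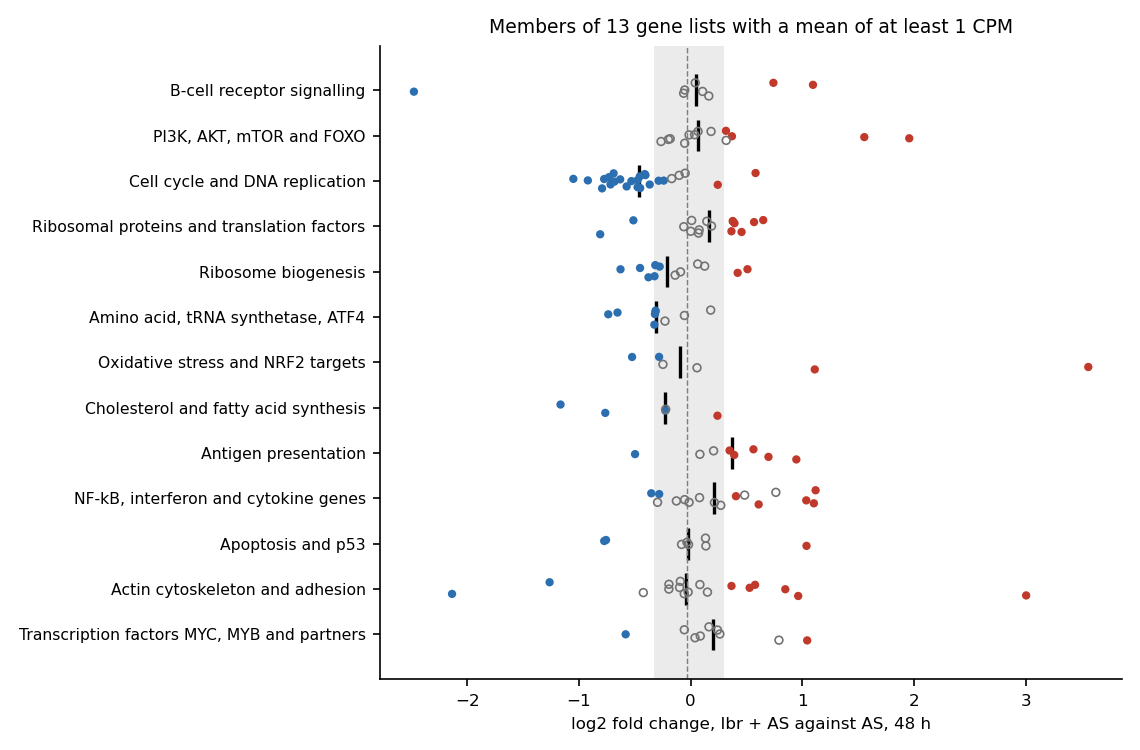
Log2 fold change of Ibr + AS against AS at 48 h for the members of 13 gene lists with a mean of at least 1 CPM (1 point per gene); filled red and blue points passed an adjusted p of 0.05, open points did not, black bars are medians of all tested members, and the grey band runs from -0.32 to 0.29, the quartiles of all genes of at least 1 CPM. The cell cycle list lies mostly to the left of the band, with a median of -0.46, and the antigen presentation list to the right of its centre, with a median of 0.37.

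Whether Ibr acted differently in cells that also received AS was tested as the difference between Ibr + AS against AS and Ibr against DMSO at 48 h. Ibr alone gave 374 DEGs, 166 higher (0.889%) and 208 lower (1.11%), from 6 libraries that the main comparison does not use, and glmTreat called 51 genes. AS alone gave 114 DEGs (0.611%) against DMSO. Of the 1002 DEGs of the comparison in AS, 164 (16.4%) were called in the same direction with Ibr alone, which is 43.9% of its 374 DEGs, and 7 were called in the opposite direction. The genes that rose in AS had a median log2 fold change of 0.50 with Ibr alone, and those that fell one of -0.49. Choosing the genes by their change in AS by itself makes smaller medians with Ibr alone likely. Across 10770 genes of at least 1 CPM the 2 effects correlated with a Pearson r of 0.55, a value over genes, which are not independent replicates, and all 12 libraries come from the same passages.

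The difference of the 2 effects was past both limits for 425 genes, 286 (1.53%) with a higher and 139 (0.745%) with a lower log2 fold change in the presence of AS. In 320 of these the absolute effect was larger with AS, and in 282 the signs of the effects were opposite. Both counts come from the libraries by which the genes were chosen, and with glmTreat 9 genes differed by more than the fold limit. Most genes named next were chosen by a large change in AS, which is 1 side of the difference. Their differences thus tend to lie too far from 0. For HMOX1, the libraries without AS held 9.31, 10.2 and 9.64 CPM with Ibr and 3.86, 5.11 and 4.24 CPM with DMSO. The log2 fold change was 1.14 with Ibr alone (adjusted p = 0.074) and 3.56 in AS, a difference of 2.42 (SE 0.54, adjusted p = 0.0034). For MTSS1, the libraries without AS held 11, 8.73 and 9.83 CPM with Ibr and 4.58, 5.18 and 5.62 CPM with DMSO. Ibr alone thus gave a smaller log2 fold change of 0.94 (adjusted p = 0.0011), and the difference was 2.06 (SE 0.28, adjusted p = 1.3e-06). TMEM71 was a DEG in both settings, at 1.11 and 2.20, with a difference of 1.09 (SE 0.27, adjusted p = 0.0055).

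In several other genes the response to Ibr alone was near 0, of the other sign, or in the same direction and smaller. DEPTOR stood at 1.46, 1.19 and 2 CPM with Ibr and 2.09, 1.65 and 1.77 CPM with DMSO. Its log2 fold change with Ibr alone was -0.25 (adjusted p = 0.73), and the difference of the effects was 2.21 (SE 0.41, adjusted p = 3.4e-05). SQSTM1 went in opposite directions. Its libraries without AS held 87.3, 70.4 and 77.8 CPM with Ibr and 112, 96.6 and 105 CPM with DMSO, a log2 fold change of -0.41 (adjusted p = 0.0017), against 1.11 in AS, and the difference was 1.53 (SE 0.14, adjusted p = 1.5e-14). PMEL had -0.88 with Ibr alone (adjusted p = 0.13) against 1.28 in AS, with a difference of 2.15 (SE 0.51, adjusted p = 0.0012). KCP and TRIB1 had differences of 1.08 (adjusted p = 5.6e-04) and 1.27 (adjusted p = 0.011). Among genes that fell in AS, FBXO5, RGS22 and SNTB1 had log2 fold changes of 0.09, -0.11 and -0.42 with Ibr alone, none of them past the test. Their differences were -1.14 (adjusted p = 1.4e-05), -1.22 (adjusted p = 0.0065) and -1.31 (adjusted p = 0.0012). The largest difference among the genes described was that of ENSCAFG00000013904, at -3.17 (SE 0.41, adjusted p = 7.3e-06), with -0.77 for Ibr alone.

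Other genes responded to Ibr with and without AS. GOLM1, a Golgi membrane protein chosen after its values were seen, had a log2 fold change of 1.09 (adjusted p = 2.0e-09) with Ibr alone and 1.08 (adjusted p = 3.4e-10) in AS, with a difference of -0.01 (SE 0.16). LYZ, the lysozyme gene, had 0.97 (adjusted p = 4.3e-07) and 1.03 (adjusted p = 2.7e-08), with a difference of 0.06 (SE 0.17). EGR1 had -1.69 (adjusted p = 0.042) with Ibr alone, from 110.4, 23.1 and 16.5 CPM with Ibr and 283, 84 and 87.8 CPM with DMSO. Passage p121 was again the highest library of each group, and the difference of -0.79 (adjusted p = 0.64) did not pass the test. AKAP12 fell in both settings, at -1.59 (adjusted p = 1.0e-09) and -2.14, and its difference of -0.54 (adjusted p = 0.36) did not pass the test. FBXO32 had a larger value with Ibr alone, 3.03 (adjusted p = 4.0e-09), from 4.47, 1.56 and 1.81 CPM with Ibr and 0.402, 0.225 and 0.308 CPM with DMSO, where passage p121 was the highest library of either group, and the difference of -1.47 (adjusted p = 0.078) did not pass the test. P4HA2 had -1.80 with Ibr alone and -1.11 in AS, and its difference of 0.69 (adjusted p = 0.2) did not pass the test. ACAT2 had -1.46 (adjusted p = 3.8e-26) with Ibr alone, and its smaller fall in AS gave a difference of 0.70 (adjusted p = 3.9e-05).

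By lists, Ibr alone gave 3 higher and 3 lower cell cycle genes of 26, and a median log2 fold change of -0.07, against -0.46 in AS. Of all genes tested 5.65% were higher and 4.94% lower with Ibr alone. Of the 10770 genes of at least 1 CPM, 1017 were higher and 859 lower. The difference of the effects was lower with AS at an adjusted p of at most 0.05 in 10 of the 26 genes. This was so for 7.6% of all genes tested and for 1405 of the 10770 genes of at least 1 CPM. Of the 8 antigen presentation genes none was higher and 1 was lower with Ibr alone, with a median of -0.09 against 0.37 in AS. Here the difference was higher with AS in 5 genes and lower in 1, against 5.99% higher among all genes tested and 1071 higher of the 10770. The median of the cholesterol and fatty acid genes was -0.45 with Ibr alone and -0.23 in AS, that of the cytoskeleton genes 0.21 and -0.04, and that of the PI3K, AKT, mTOR and FOXO genes 0.02 and 0.07.

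**Figure D4:**
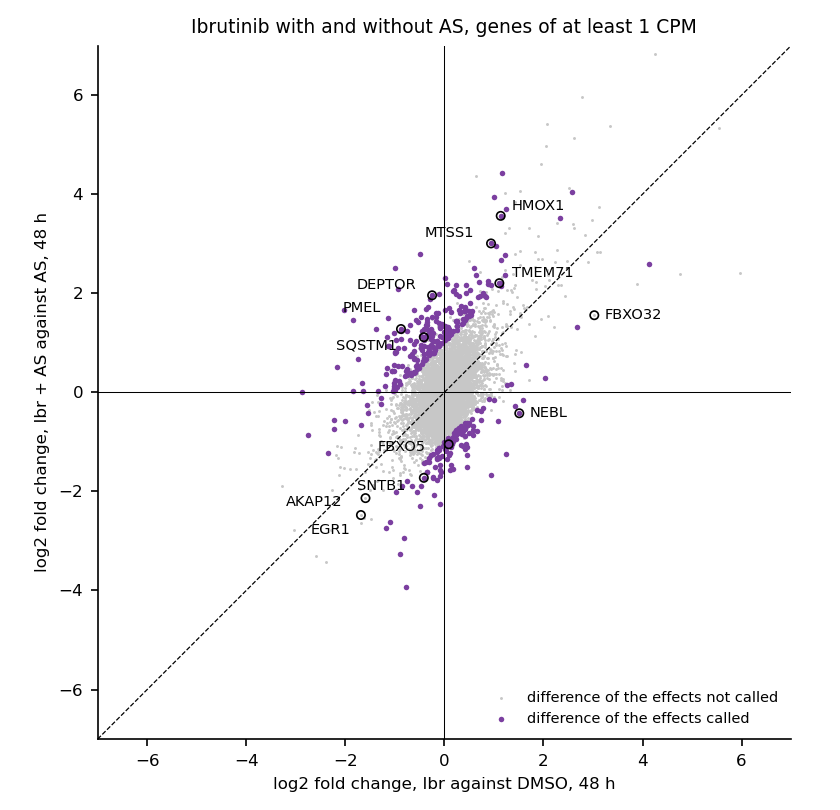
Log2 fold change of Ibr against DMSO (horizontal) and of Ibr + AS against AS (vertical) at 48 h for genes of at least 1 CPM, each axis ending at 7 in either direction; the dashed line marks equal effects, purple points are genes whose 2 effects differed past both limits, and 1 gene lies outside the axes. HMOX1, MTSS1, TMEM71, DEPTOR, PMEL and SQSTM1 lie above the line, SNTB1, FBXO5 and NEBL below it, and AKAP12 and EGR1 have falls on both axes.

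The same comparison at 24 h gave 889 DEGs (4.76%), 684 higher and 205 lower. For 72 h it gave 601 DEGs (3.22%), 261 higher and 340 lower, so more of them fell than rose, unlike at 48 h. Of the 1002 DEGs at 48 h, 564 (56.3%) were called in the same direction at 24 h, which is 63.4% of the DEGs of 24 h, and none in the opposite direction. At 72 h, 314 (31.3%) were called in the same direction, 52.2% of the DEGs of 72 h, and 3 in the opposite direction. The median log2 fold change of the genes that rose at 48 h was 1.29 at 24 h and 0.82 at 72 h, and that of the genes that fell was -0.99 and -0.93. The genes were chosen by their change at 48 h, which by itself makes smaller medians at other times likely. Across 10770 genes the log2 fold changes of 48 h correlated with those of 24 h with a Pearson r of 0.89 and with those of 72 h with 0.76, from separate libraries of the same passages.

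A difference between 48 h and 24 h was called for 5 genes (0.0268%), 4 higher and 1 lower at 48 h, none of them with a symbol. An unadjusted p under 0.05 was found for 946 of 18670 genes, a limit that passes a share of about 0.05 where nothing differs. DESeq2 called 9 genes, and without passages p121, p126 and p128 in turn the count was 39, 11 and 13. Between 48 h and 72 h 129 genes (0.691%) differed, 119 with a higher log2 fold change at 48 h and 10 with a lower one. Without passage p128 this count was 206, and without passage p126 it was 85. MTSS1 had log2 fold changes of 3.14, 3.00 and 1.34 at 24, 48 and 72 h, and the difference between 48 h and 72 h was 1.67 (SE 0.26, adjusted p = 7.9e-05). P4HA2 had values of -0.06, -1.11 and -2.79, and its difference between 48 h and 72 h was 1.67 (SE 0.35, adjusted p = 0.0014). DLA-DRA was higher at 48 h and lower at 72 h, at 0.39 and -0.36, a difference of 0.75 (adjusted p = 8.9e-04) that is inside the fold limit.

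HMOX1 had 3.44 at 24 h and 2.84 at 72 h, and DEPTOR had 1.27 and 2.01. Neither differed from 48 h past the test. MYC had 1.24, 1.04 and 0.60 in order of time, and BCL2 had -0.23, -0.77 and -1.03. The difference between 48 h and 72 h had an adjusted p of 0.045 for MYC, with a difference of 0.44, and 0.57 for BCL2, with 0.26. Of the 26 cell cycle genes 17 were lower at 24 h, 20 at 48 h and 11 at 72 h, against 12.3%, 14.4% and 8.25% of all genes tested. Among the 10770 genes of at least 1 CPM, 2246, 2636 and 1443 were lower. Antigen presentation genes had medians of 0.24, 0.37 and -0.10 in order of time. Of the 8 members 3, 5 and 1 were higher, against 12.4%, 13.3% and 7.24% of all genes tested, and at 72 h 2 were lower. Among the 10770 genes of at least 1 CPM, 2082, 2270 and 1280 were higher. Of the 16 ribosomal and translation genes 8, 7 and 0 were higher, with medians of 0.26, 0.17 and 0.08, and of the 9 amino acid genes 7, 6 and 0 were lower, with medians of -0.33, -0.31 and 0.00. Whether these lists differed between times was not tested. The 3 comparisons share the passages but no library.

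**Figure D5:**
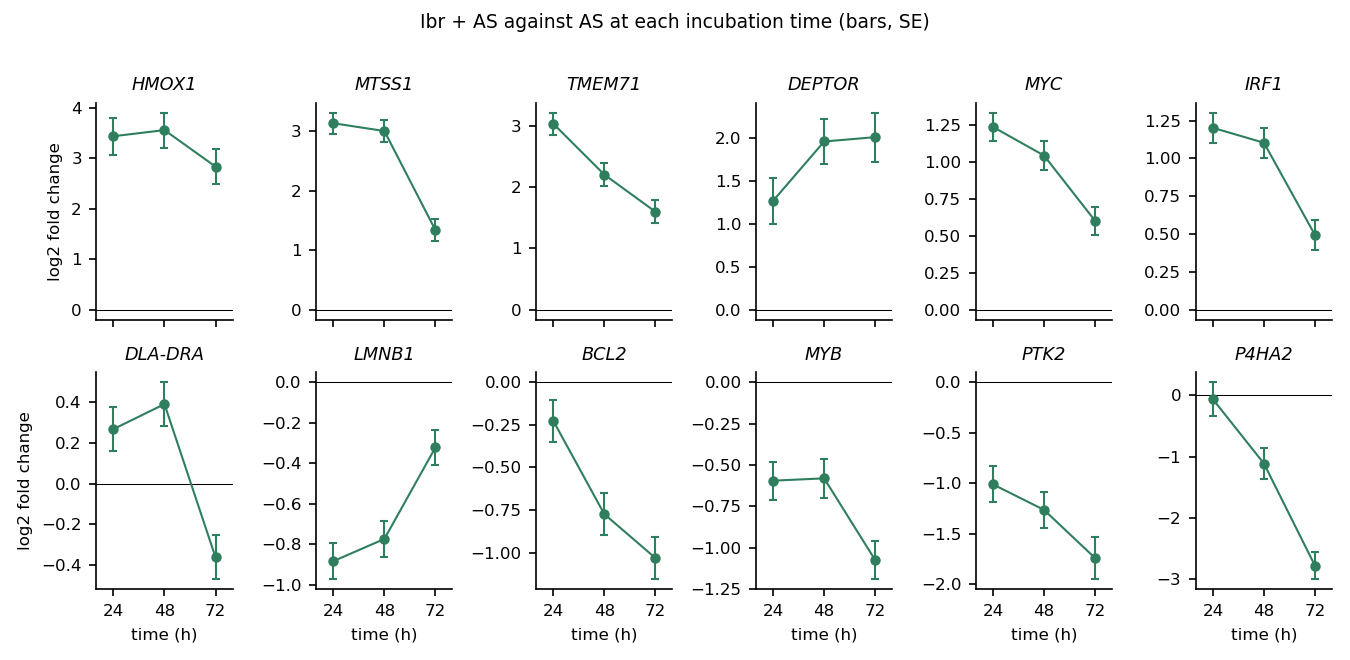
Log2 fold change of Ibr + AS against AS (vertical, bars are SE, scales differ between panels) at 24, 48 and 72 h (horizontal) for 12 genes. MTSS1 runs from 3.14 to 1.34 and P4HA2 from -0.06 to -2.79, the 2 genes shown whose value at 48 h differed from that at 72 h past both limits.

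Markers of other cells were low apart from a few myeloid genes. Of 8 B-cell markers 2 were tested, TNFRSF13C, described above, and NFAM1, which had no read in the 6 libraries, and MS4A1, a defining marker, was not analysed here. Of 5 tested markers of T and NK cells none reached a mean of 1 CPM, with means between 0 and 0.657 CPM in either group. CD226, an adhesion receptor of T and NK cells, had 4, 7 and 3 reads with Ibr + AS and no read with AS. This is at least 1.72-fold higher when AS is set at 3 reads per library, and its call was lost without passage p126. No T or NK marker was called with DESeq2, nor with filterByExpr, which left 1 of the 5 to test. The 1 tested erythroid and platelet marker, MPIG6B, had at most 0.337 CPM in any of the 6 libraries. Of 4 tested myeloid markers (8 listed) 3 were higher, beside 13.3% of all genes tested and 21.1% of genes of at least 1 CPM. LYZ had 168, 192 and 191 CPM with Ibr + AS and 97.9, 88.6 and 83.5 CPM with AS, and the groups did not overlap. Its log2 fold change was 1.03 (SE 0.12, adjusted p = 2.7e-08), which was 0.98 without passage p126 and 0.97 without passage p128. TREML2 and NCF4 were higher with 0.79 (adjusted p = 7.2e-05) and 0.29 (adjusted p = 0.0099), and TREM2 had no read. Summed over the 4 myeloid markers the level was 364.5 to 413 CPM with Ibr + AS and 256 to 259.7 CPM with AS, and over the 5 T and NK markers 1.08 to 1.26 CPM and 0.315 to 0.657 CPM. All 6 libraries are cultures of the CLBL-1 line, and the origin of these reads was not tested.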

How the data were processed

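The deposited table holds raw counts per Ensembl gene in 36 libraries. Per the labels and methods, the authors aligned single-end poly-A reads to CanFam3.1 with STAR 2.7.5a; the strand setting of the counts is not given in the sources used here, so overlapping and antisense genes cannot be told apart.

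Counts were tested with edgeR 4.0.16 (R 4.3.3; TMM, glmQLFit, glmQLFTest, Benjamini-Hochberg adjustment over all genes) on 18670 of 30424 genes, those with a minimum of 2 reads summed over libraries. 1 fit held 12 groups of treatment and time with passage as a block and 35 libraries (Ibr 72 h replicate 3 was left out, as in the study). DEGs had an adjusted p up to 0.05 and a log2 fold change beyond 1 in either direction. Each SE was derived from the test, as the absolute log2 fold change divided by the square root of its F statistic. Passage numbers come from the labels, which disagree for DMSO 24 h replicate 3 (p128 was used). Same-numbered samples deviated together (r = 0.37, 0.17 and 0.21 over 10770 genes, other pairs -0.26 to 0.12). A sequencing run was inferred from the restart of sample-sheet numbers in the header, and each pair of Ibr + AS and AS at 48 h fell in a single run. Alternatives were DESeq2 1.42.0, RLE factors, filterByExpr, all 36 libraries, no block, glmTreat, fewer libraries and each passage left out. Intervals and floors (3 reads) cover counting error only.

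Symbols came from identifier and symbol columns of shortened supplementary tables (1068 genes). Named genes were, among DEGs with a symbol, 1 direction in 3 passages and a mean from 1 CPM upwards, the 12 that rose and the 12 that fell most, up to 4 DEGs of each list (with none, the 2 members of highest mean CPM), MYC, MYB, BCL2, PIK3R1 and 2 genes without a symbol in each direction; other list members are given beside them, and 1 gene that met the rule is not reported here. The comparison and lists were chosen with earlier results of these data known. Scripts were tested on simulated data.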

Additional observations from a re-analysis of the deposited data

Results flagged for a closer look

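For 12 genes the effect of Ibr at 48 h differed with and without AS, by a test of the difference itself. The difference, in log2 units with AS minus without AS, was 2.42 for HMOX1, 2.06 for MTSS1, 1.09 for TMEM71, 2.21 for DEPTOR, 1.08 for KCP, 2.15 for PMEL, 1.53 for SQSTM1 and 1.27 for TRIB1. It was -1.14 for FBXO5, -1.22 for RGS22, -1.31 for SNTB1 and -3.17 for ENSCAFG00000013904. For 2 of the 49 named genes the difference between Ibr + AS and AS was not the same at 48 h and 72 h, with 1.67 for MTSS1 and 1.67 for P4HA2 (48 h minus 72 h). No group holds more than 3 libraries, so single libraries were not tested as standing apart.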

How the results depend on the processing

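The count of DEGs between Ibr + AS and AS lay between 922 and 1022 with DESeq2, RLE factors, filterByExpr, all 36 libraries, no replicate block (1003) and fits of 6 or 12 libraries, and at 994 with sequencing run as a further term, which was chosen after seeing the data. RLE factors gave 751 higher and 271 lower, DESeq2 662 and 260. With a passage left out it was 780 to 1043 (533 to 727 higher, 247 to 316 lower). glmTreat, which tests against the fold limit, gave 214 DEGs (177 higher, 37 lower). It gave 9 genes for the effect with against without AS, 51 for Ibr against DMSO and 4 for 48 h against 72 h. For 48 h against 24 h it gave 0, with 124 of 18670 genes at an unadjusted p under 0.05. For 48 h against 24 h DESeq2 gave 9 genes, no replicate block 2, and leaving out a passage 11 to 39. For 48 h against 72 h leaving out a passage gave 85 to 206, for the effect with against without AS 286 to 485, and for Ibr against DMSO 318 to 372. Pairing by passage changed no other count by over 1.5 times. Of 37 named DEGs 29 were called under every alternative run for single genes, and 8 lost the call under at least 1. The only reversed sign was that of MPIG6B, a gene of few reads that was not called, at 0.43 without replicate 2 and -4.62 without replicate 3. The cause of these shifts was not tested. At the depth of these libraries, genes near 3 reads have no useful bound on a fold.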

Other observations

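Further genes with a symbol were DEGs between Ibr + AS and AS at 48 h outside the rule for named genes, and they are given here after their values were seen. WFS1, a protein of the endoplasmic reticulum membrane, had 234, 226 and 217 CPM with Ibr + AS and 112, 96 and 98.1 CPM with AS, with a log2 fold change of 1.15 (SE 0.09, adjusted p = 2.7e-19). Its groups did not overlap. The tubulin acetyltransferase gene ATAT1 rose with 1.05 (adjusted p = 3.4e-09) and the kinesin gene KIFC2 with 1.08 (adjusted p = 1.8e-07). SLA, an adaptor that dampens antigen receptor signalling, had 17, 14.7 and 15.5 CPM with Ibr + AS and 7.23, 7.25 and 8.13 CPM with AS, again without overlap and with 1.06 (adjusted p = 2.3e-09). MYL6B, PRRT1, MRNIP and TMEM249 rose with log2 fold changes of 1.17, 1.17, 1.18 and 1.10.

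Several DEGs rested on few reads. WNT7B, a secreted Wnt ligand, had 7, 6 and 10 reads with Ibr + AS and none with AS, which is at least 2.74-fold higher with AS set at 3 reads per library. MAPK15 had 2, 1 and 4 reads against none, for which no bound above 1 can be given. DCSTAMP, a fusion protein of osteoclasts, had 9, 3 and 5 reads against 1, 1 and 3, a ratio of 3.76-fold (95% exact binomial interval 1.33 to 13). For DCSTAMP the lowest library with Ibr + AS and the highest with AS had the same number of reads. In the other direction, TPH2, an enzyme of serotonin synthesis, had 1, 1 and 1 reads with Ibr + AS against 9, 8 and 12 with AS, a ratio of AS over Ibr + AS of 8.74-fold (95% exact binomial interval 2.71 to 44.8). FAM184A had 2, 0 and 1 against 8, 5 and 8 reads, a ratio of 6.33-fold (95% exact binomial interval 1.89 to 33.1). SERPINB2, a protease inhibitor, had 4, 2 and 6 against 16, 23 and 17 reads and FBXO43 2, 4 and 2 against 6, 12 and 8. In these 4 genes each Ibr + AS library had fewer reads than any AS library.

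A further 2 genes, without a call in AS, had a difference of effects past both limits, given after their values were seen. NEBL, a nebulin-like actin binding protein, had a log2 fold change of 1.51 (adjusted p = 1.3e-06) with Ibr alone and -0.42 (adjusted p = 0.44) in AS, a difference of -1.93 (adjusted p = 4.9e-04). IL23A, a cytokine subunit, had -1.17 (adjusted p = 0.0097) with Ibr alone and 0.48 (adjusted p = 0.32) in AS, a difference of 1.65 (adjusted p = 0.008).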
